A study of Mus musculus with 18 samples.

Results

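The ethanol response of livers that overexpress YAP was measured in 6 of the 18 libraries of the series, 3 from ethanol-fed and 3 from pair-fed mice. They were chosen by their group labels alone, and 3 ethanol-fed and 3 pair-fed control libraries served as the comparison. The title of the series names YAP, ER stress and ATF6 in liver damage by alcohol as its subject. All mice carried floxed alleles of the endogenous Yap gene, which no Cre deleted in these 12 livers. At 8 weeks of age the overexpressing mice received AAV-TBG-YAP-P2A-EGFP through the retro-orbital vein and the control mice AAV-TBG-GFP, both at the same dose. After 2 weeks the mice moved to liquid food, with 5 days of acclimation, and then had 4 weeks of Lieber-DeCarli ethanol or control diet. A last gavage of ethanol (5 g/kg, as a 33% solution by volume) or of isocaloric maltose-dextrin (pair-fed mice) preceded death by 9 hours. TBG is a hepatocyte promoter, so that YAP was added on top of the endogenous gene in hepatocytes, while RNA came from whole liver with all of its cell types. In such bulk tissue, fewer cells of a type and less RNA per cell cannot be told apart. Neither sex nor whether the 3 libraries of a group are 3 animals is stated in the labels. The p-values therefore measure only the spread between libraries, which may be technical.

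YAP is a coactivator that the kinases of the Hippo pathway hold in the cytoplasm, and in the nucleus it joins TEAD transcription factors at genes such as Cyr61 and Ctgf. The unfolded protein response of the endoplasmic reticulum (ER) has 3 sensors, of which ATF6 is cleaved and induces ER chaperones, IRE1 splices the RNA of Xbp1, and PERK raises the translation of ATF4. In the liver, ethanol is oxidised by alcohol dehydrogenases and by the cytochrome P450 CYP2E1, and a binge on top of chronic feeding brings fat accumulation and inflammation.

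Each library came from an amplicon panel with 1 amplicon per gene, and the 6 libraries held 5.28 to 5.81 M reads. Levels are in CPM (reads scaled to a fixed library total), on which scale 1 read was worth 0.172 to 0.189 CPM. The limit that a count of 0 allows, 3 reads, came to 0.517 to 0.568 CPM (counting error only). Xist stood at 0 to 0.183 CPM and the Y-linked gene Ddx3y at 54.0 to 86.2 CPM in all 6 libraries, while 2 of the 3 pair-fed control libraries held Xist reads (373 and 423 CPM). The hepatocyte marker Alb was the most abundant gene, at 23604 to 26945 CPM. On the log2 scale, libraries of one diet correlated with each other at r = 0.971 to 0.982 and libraries of different diets at 0.956 to 0.972.

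Yap1 RNA stood at 57.6, 155 and 214 CPM in pair-fed replicates 1 to 3 and at 144, 115 and 106 CPM in ethanol-fed replicates 1 to 3. Control livers had 51.5 to 60.7 CPM (pair-fed) and 58.1 to 66.6 CPM (ethanol-fed). The Yap1 level of pair-fed replicate 1 was therefore that of the controls and goes against its label, while the other 5 libraries lay above all 6 controls. The diets overlapped, and the log2 change of Yap1 was -0.04 ± 0.38 (limma adjusted p = 0.982), or -0.59 without pair-fed replicate 1 (adjusted p = 0.494). Whether the amplicon reads the transgene is not given in the sources used here. Other values of that library lay above the pair-fed controls, such as the YAP target Cyr61 (15.7 CPM against 7.48 to 8.93 CPM) and the target Amotl2 (92.0 CPM against 44.7 to 63.4 CPM). Whether it was mislabelled or poorly transduced was not tested. Results are given with all 6 libraries and, where a call ended, with the value without pair-fed replicate 1.

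Ethanol feeding raised 47 genes and lowered 88 in YAP overexpressing livers, out of 11720 tested. The rises were led by cytochrome P450 genes of the Cyp2b family, acute phase protein genes and the early response gene Egr1, and the falls by single genes such as the steroid dehydrogenase Hsd3b5, the uridine phosphorylase Upp2 and the lipase Lipg. A change is the log2 fold change of CPM + 1 (ethanol-fed minus pair-fed) ± SE, with 3 libraries a group, and it understates the fold of genes near or below 1 CPM. In the main fit, SE and p-value draw on the spread within groups of all 18 libraries. These include 6 hepatocyte-specific Yap knockout libraries and the pair-fed controls, which differ in Xist reads. Calls are genes with an adjusted p under 0.05 in limma (Benjamini-Hochberg over all genes tested), which came to 1.15% of genes, 0.401% higher and 0.751% lower. Unadjusted, 1704 genes had a p under 0.05. The 3 ethanol-fed libraries lay above all 3 pair-fed ones in 7.83% of genes and below them in 14.6%. The median change of all genes was -0.07 and 42.4% of them were positive. In 134 of the 135 called genes the groups did not overlap.

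The balance of rises and falls moved with the scaling. Falls were 88 of 135 calls on the library total, but with TMM factors, which correct for composition, the calls were 1.1% of genes (78 higher and 51 lower) and the median of all genes was 0.01. With quantile normalization they were 64 higher and 46 lower, and with edgeR's quasi-likelihood test on recovered reads 89 higher (0.759%) and 47 lower. All 135 called genes kept their sign in these fits. Without pair-fed replicate 1, limma called 34 genes (10 higher and 24 lower, 0.29%), of which 31 were among the 135. It called 27 without pair-fed replicate 3, 17 without ethanol-fed replicate 2 and 33 without ethanol-fed replicate 3. Calls kept whichever of the 6 libraries was left out numbered 13, named here after their values were seen. The 6 higher ones were Avpr1a, Cyp2b10, Cyp2b9, Egr1, Fgl1 and Slc34a2, and the 7 lower ones Foxo3, Kcnk5, Lipg, Mbd1, Ppargc1b, Upp2 and Usp2.

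**Figure D1:**
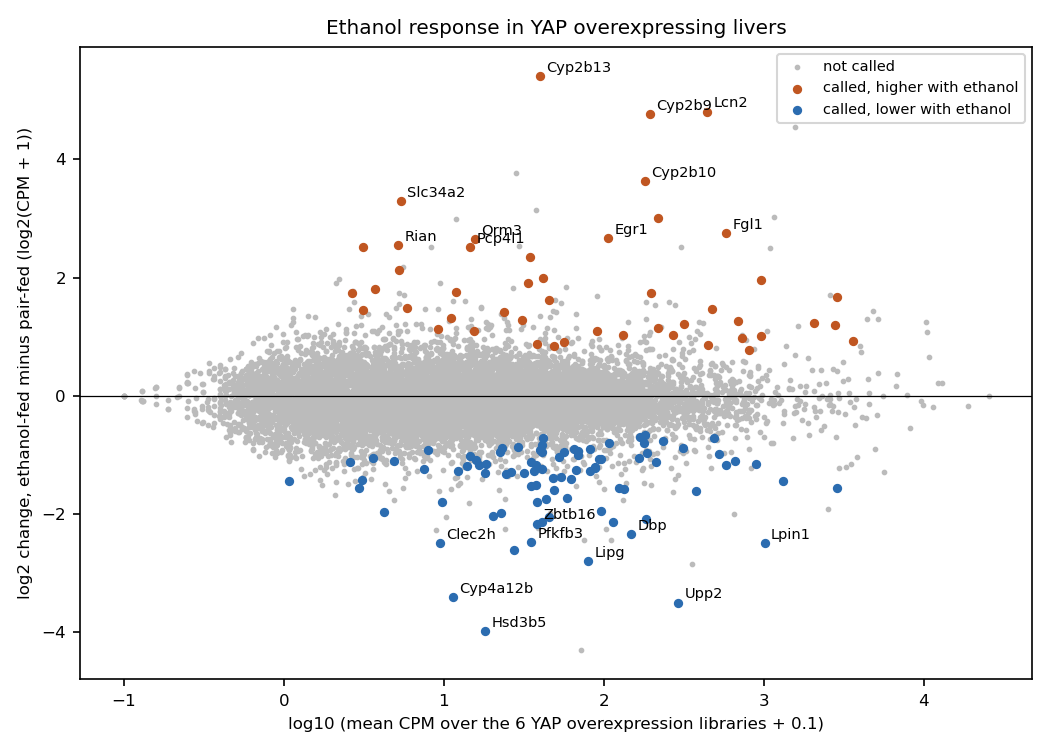
Log2 change (ethanol-fed minus pair-fed, vertical axis) against the log10 mean level in CPM + 0.1 over the 6 libraries (horizontal axis) for all 11720 genes tested, with called genes in orange (47 higher) and blue (88 lower). Names mark genes among the 10 strongest changes in each direction, which run from 5.42 for Cyp2b13 to -3.98 for Hsd3b5.

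Genes of xenobiotic metabolism included the largest rise of all, that of Cyp2b13. Of 26 tested receptors and enzymes of this group 4 rose and 1 fell, 17 were positive, and the median change was 0.55 against -0.07 for all genes. In 10 of the 26 the ethanol-fed libraries all lay above the pair-fed ones, against 7.83% of all genes. Cyp2b10, the usual target of the nuclear receptor CAR, stood at 39.6, 21.9 and 19.8 CPM in pair-fed and at 292, 317 and 392 CPM in ethanol-fed livers. The diets were far apart and the ethanol-fed libraries close to each other (3.63 ± 0.48, adjusted p = 0.0012). Cyp2b9, a female-biased member of the same family, stood at 12.3, 22.8 and 7.15 CPM in pair-fed and at 390.4, 318 and 411 CPM in ethanol-fed livers (4.76 ± 0.73, adjusted p = 0.00367). Cyp2b13, its closest relative, had 1.51, 1.22 and 0 CPM in pair-fed and 80.3, 47.0 and 110.1 CPM in ethanol-fed livers (5.42 ± 1.22, adjusted p = 0.0353). No pair-fed library came near an ethanol-fed one in any of the 3 genes. The call of Cyp2b13 was lost with each of the 6 libraries left out (adjusted p = 0.0743 to 0.148), although its change was 5.67 without pair-fed replicate 1.

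Reads of such near copies could be split or shared by the panel, so that the split between Cyp2b9 and Cyp2b13 is uncertain. Their promoters are near copies as well, at 99.2% identity over the 250 bases before the start (RefSeq, build GRCm38.p6), against 70% with Cyp2b10 in a global alignment. A stretch without a difference is shown to make this visible. It lies at chr7:26173269-26173368 on the plus strand for Cyp2b9 and at chr7:26061355-26061454 on the plus strand for Cyp2b13. Capitals mark GGAATG, the TEAD motif, on the reverse strand (CATTCC). The 250 bases before the start of Cyp2b10 also hold a match, as do those of 14.36% of 27025 genes.
Cyp2b9 and Cyp2b13: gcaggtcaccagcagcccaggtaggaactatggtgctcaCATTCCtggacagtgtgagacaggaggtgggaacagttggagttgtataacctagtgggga
A match is a description of letters and not a bound site.

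Among the other enzymes, Cyp3a13, a drug-metabolising P450, stood at 279, 187 and 292 CPM in pair-fed and at 584, 743 and 763 CPM in ethanol-fed livers (1.48 ± 0.25, adjusted p = 0.00828). It lost its call without ethanol-fed replicate 2 (adjusted p = 0.0614). Cyp2c29 had 1774, 612 and 1570.0 CPM against 4037, 3686 and 3991 CPM, apart in every library but short of the threshold (1.71 ± 0.51, adjusted p = 0.108). Nr1i2, which encodes the receptor PXR, fell from 81.6, 93.2 and 79.4 CPM to 55.3, 41.3 and 40.1 CPM (-0.89 ± 0.20, adjusted p = 0.0395, with 0.104 without pair-fed replicate 1, 0.0789 with TMM factors and 0.0886 with edgeR). Nr1i3, the gene of CAR itself, had 231, 119.6 and 197 CPM against 332, 211 and 218 CPM, with overlapping groups (0.49 ± 0.43, adjusted p = 0.656).

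Acute phase protein genes were mostly higher. Of 27 tested positive acute phase genes 6 rose and 0 fell, 25 were positive and the median change was 1.08. In 15 of the 27 the ethanol-fed libraries all lay above the pair-fed ones, against 7.83% of all genes. Lcn2, the iron-siderophore binding protein lipocalin 2, stood at 17.2, 90.4 and 5.32 CPM in pair-fed and at 159, 1182 and 1219.7 CPM in ethanol-fed livers (4.81 ± 0.86, adjusted p = 0.0118). The lowest ethanol-fed library was still above the highest pair-fed one. Serpina3n, a protease inhibitor, had 335, 405 and 348 CPM in pair-fed and 779, 1389.8 and 2544 CPM in ethanol-fed livers (1.95 ± 0.39, adjusted p = 0.0207). Itih4, an inter-alpha-trypsin inhibitor heavy chain, had 2349, 1129.8 and 1641 CPM against 2744, 4422 and 4365 CPM (1.20 ± 0.25, adjusted p = 0.0271). Groups were apart in both genes, narrowly so in Itih4.

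The orosomucoid genes, which encode the alpha-1-acid glycoproteins of plasma, rose as a family of 3 near relatives whose reads may be shared. Orm1 stood at 1195, 1651 and 1122 CPM in pair-fed and at 2351, 5817 and 5241 CPM in ethanol-fed livers (1.67 ± 0.31, adjusted p = 0.0126). Orm3 had 2.46, 6.61 and 1.65 CPM against 12.8, 39.97 and 29.8 CPM (2.66 ± 0.59, adjusted p = 0.0338). Ethanol-fed replicate 1 was the lowest of its group in both genes, yet above every pair-fed library. Orm2 had 25.2, 89.6 and 11.2 CPM against 61.6, 826 and 291 CPM (3.01 ± 0.72, adjusted p = 0.0475), and it was the called gene whose groups overlapped. Pair-fed replicate 2 was the highest of its group in Lcn2 and in all 3 orosomucoid genes.

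The 3 fibrinogen chain genes missed the threshold together. Fga had 3138, 2429 and 3139 CPM in pair-fed and 5069, 6970.1 and 10201 CPM in ethanol-fed livers (1.30 ± 0.33, adjusted p = 0.0565). The changes of Fgb (1.30) and Fgg (1.43) had adjusted p-values of 0.0565 and 0.0508. Saa2, a serum amyloid A gene, ran from 14.3 to 172 CPM in pair-fed and had 49.3, 6395 and 2782 CPM in ethanol-fed livers, with overlapping groups and an adjusted p of 0.114. Hamp, the iron hormone hepcidin, was lowest in ethanol-fed replicate 1 at 240.1 CPM, against 2396 to 4807 CPM in pair-fed livers (-1.21 ± 1.14, adjusted p = 0.681). Of the signalling genes upstream, 18 were tested and none was called. Stat3, which carries the interleukin 6 signal, had 181, 203 and 171 CPM against 306, 353 and 248 CPM (0.70 ± 0.19, adjusted p = 0.0787). Il6ra, the receptor of that cytokine, had 42.6, 28.0 and 44.4 CPM against 22.4, 15.8 and 18.95 CPM (-0.96 ± 0.32, adjusted p = 0.153). Both were apart in every library, in opposite directions.

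Plasma proteins that fall in the acute phase had 0 calls among 10, with 5 positive and a median of 0.00. Ahsg, the carrier fetuin-A, had 7220.2, 5315 and 7805 CPM in pair-fed and 15191, 14161 and 13118 CPM in ethanol-fed livers (1.08 ± 0.26, adjusted p = 0.0522, and 0.0292 by edgeR). Serpina6, which carries glucocorticoids, had 379, 273 and 460.4 CPM against 162, 154 and 151 CPM (-1.21 ± 0.37, adjusted p = 0.113). The diets did not overlap in either gene, although the directions were opposite.

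Without pair-fed replicate 1 only Itih4 of the 6 acute phase calls remained (adjusted p = 0.0209), while the median of the group was 1.25. There the adjusted p was 0.054 for Lcn2, 0.0678 for Orm1, 0.115 for Orm3, 0.135 for Orm2 and 0.0802 for Serpina3n. Itih4 lost its call without pair-fed replicates 2 (0.101) or 3 (0.0931) and without ethanol-fed replicates 2 (0.113) or 3 (0.127). Of 15 neutrophil markers 6 passed the filter on low values, some only through the ethanol-fed libraries, and 0 were called. The summed level of all 15 was 2.08 to 6.96 CPM in pair-fed and 8.30 to 28.6 CPM in ethanol-fed livers. The defining markers Ly6g, Cxcr2, Cd177 and Mpo had no read in any of the 6 libraries, and S100a9 had 0.189, 0.348 and 0.367 CPM against 1.62, 11.4 and 1.72 CPM. Kupffer cell markers summed to 509 to 962 CPM in pair-fed and 665 to 715 CPM in ethanol-fed livers, with 0 of 15 called. The part of these cells in the rise of acute phase genes was not tested.

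Among the other large rises was Slc34a2, a sodium-phosphate cotransporter, with 0, 0.522 and 0 CPM in pair-fed and 8.67, 12.9 and 9.82 CPM in ethanol-fed livers (3.30 ± 0.50, adjusted p = 0.0034). Pair-fed levels were at or below the limit of 3 reads. Egr1, an immediate early transcription factor, had 19.1, 51.3 and 20.5 CPM against 201, 220.1 and 128 CPM (2.66 ± 0.42, adjusted p = 0.00438). Fgl1, a hepatocyte-secreted fibrinogen-like protein, had 159, 95.5 and 122 CPM against 374, 1955 and 782 CPM (2.75 ± 0.45, adjusted p = 0.00549). All 3 genes were apart in every library and kept their calls whichever library was left out.

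Rian, an imprinted noncoding RNA, had 0.348 to 1.14 CPM in pair-fed and 14.3, 6.45 and 7.75 CPM in ethanol-fed livers (2.55 ± 0.61, adjusted p = 0.0475). Pcp4l1 had 6.06, 1.56 and 4.03 CPM against 25.6, 31.3 and 18.6 CPM (2.51 ± 0.58, adjusted p = 0.0421). Neither gene overlapped between diets, and neither call was kept in any of the 6 fits that left out a library (0.104 and 0.077 as adjusted p-values without pair-fed replicate 1). Mt1, a metal-binding metallothionein, had 226, 263 and 211 CPM against 1737, 1168 and 3374 CPM, far apart but with an adjusted p of 0.0571 (3.02 ± 0.77). Osgin1, an oxidative stress gene, had 47.0, 127 and 75.5 CPM against 838, 558 and 187 CPM (2.52 ± 0.67, adjusted p = 0.0666). The groups did not overlap in either of them.

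**Figure D2:**
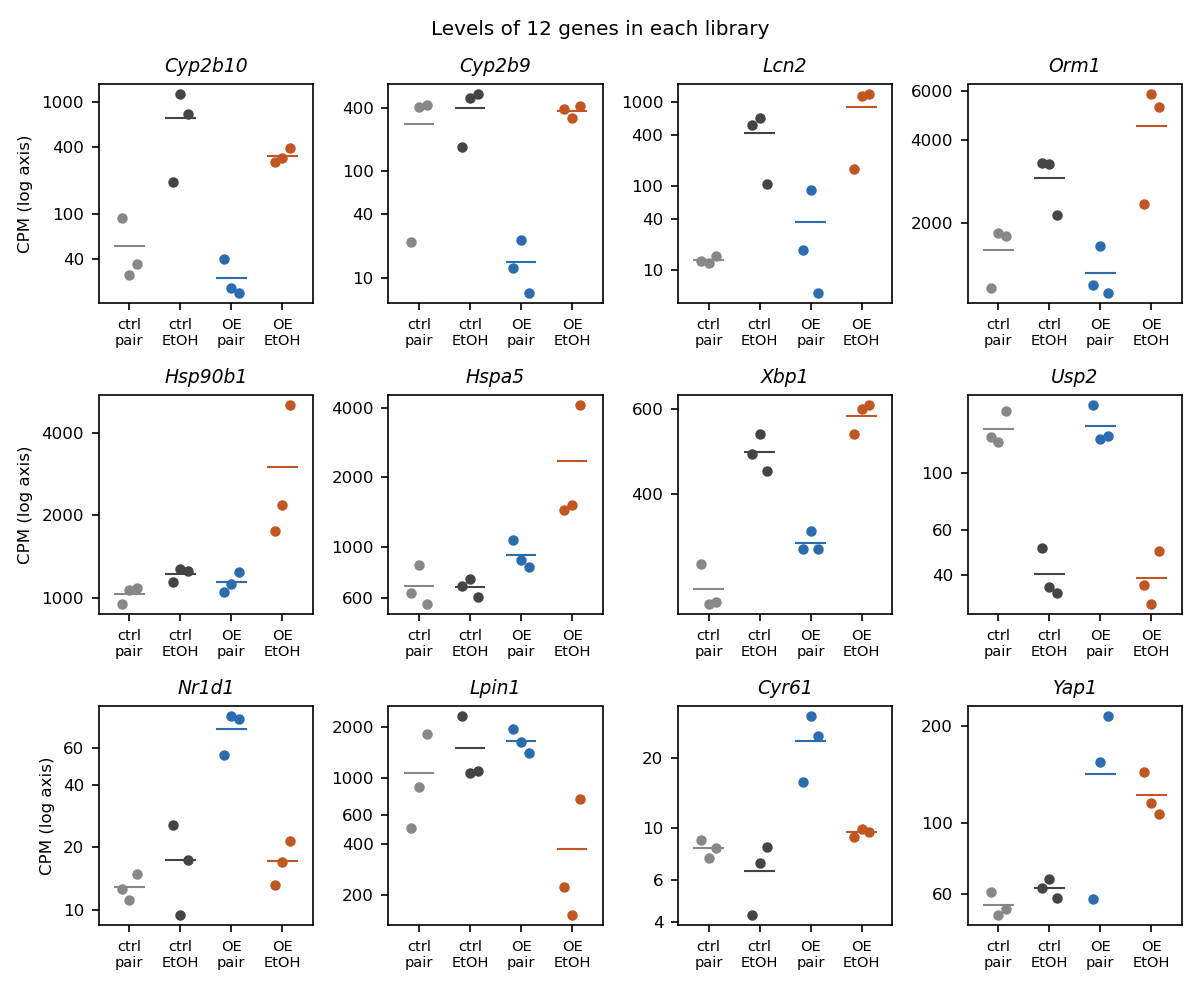
Levels in CPM (log axis) of 12 genes in each library of the pair-fed and ethanol-fed control (grey) and YAP overexpression (OE, blue and orange) groups, with the mean of each group as a line. Cyp2b10 reached 292 to 392 CPM in the ethanol-fed OE livers, against 19.8 to 39.6 CPM in the pair-fed ones, and Yap1 of 1 pair-fed OE library lay among the controls.

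ER chaperone genes, the subject of the series' title, were mostly positive, and most strongly so in 1 library. Of 20 tested genes of the ATF6 branch 1 rose (Hsp90b1), 18 were positive and the median change was 0.57. In 10 of the 20 the ethanol-fed libraries all lay above the pair-fed ones, against 7.83% of all genes. Hsp90b1, the ER paralog of HSP90 also called GRP94, stood at 1058, 1125 and 1245 CPM in pair-fed and at 1753, 2191 and 5019.6 CPM in ethanol-fed livers (1.23 ± 0.26, adjusted p = 0.0279). Hspa5, the chaperone BiP that holds the sensors inactive, had 1069, 875 and 818 CPM against 1446, 1516 and 4114 CPM (1.19 ± 0.31, adjusted p = 0.0658, and 0.0359 by edgeR). Creld2 had 169, 96.3 and 83.4 CPM against 157, 228 and 945 CPM (1.54 ± 0.46, adjusted p = 0.107). Ethanol-fed replicate 3 was the highest of the 6 libraries in each of these 3 genes, by a wide margin, and Creld2 overlapped between diets.

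The summed level of the 20 genes was 7253 to 7984 CPM in pair-fed livers and 9004 to 19100 CPM in ethanol-fed ones, with the top value in ethanol-fed replicate 3. Without that library the median was 0.35 with 0 called, Hsp90b1 was 0.78 (adjusted p = 0.0716) and Hspa5 0.69 (adjusted p = 0.313). The call of Hsp90b1 was kept only without ethanol-fed replicate 1, where 5 of the 20 were called (adjusted p = 0.101 for Hsp90b1 without pair-fed replicate 1). Dnajc3, a BiP cochaperone, was less spread, with 114, 123 and 116 CPM against 152, 195 and 245 CPM (0.72 ± 0.19, adjusted p = 0.0657). Manf (1.25, adjusted p = 0.113) and Sdf2l1 (1.69, adjusted p = 0.153) also had their highest levels in ethanol-fed replicate 3, at 1009 and 329 CPM. Herpud1 differed from the other members, with 1407, 797 and 963 CPM against 602, 382 and 727 CPM (-0.90 ± 0.43, adjusted p = 0.351). Atf6 itself overlapped between diets, at 138, 132 and 121 CPM against 140.1, 114 and 160.0 CPM (0.07 ± 0.18, adjusted p = 0.905).

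The ER stress element, CCAAT and CCACG with 9 bases of any kind between them, searched on both strands, was found within 250 bases before the start of 7 of the 17 tested genes of this group with a promoter in the table (41.2%), against 0.1295% of 27025 genes. The 7 were Hspa5, Hsp90b1, Pdia6, Calr, Canx, Dnajc3 and Creld2. Stretches around it are shown for 4 of them whose levels are given above, 5′ to 3′ along the gene, with the element in capitals (RefSeq, build GRCm38.p6).
Hspa5: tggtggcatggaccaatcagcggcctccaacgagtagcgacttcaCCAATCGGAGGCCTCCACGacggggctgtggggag
Hsp90b1: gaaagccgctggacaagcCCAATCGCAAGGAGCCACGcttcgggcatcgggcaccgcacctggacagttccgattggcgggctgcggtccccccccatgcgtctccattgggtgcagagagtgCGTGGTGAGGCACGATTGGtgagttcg
Creld2: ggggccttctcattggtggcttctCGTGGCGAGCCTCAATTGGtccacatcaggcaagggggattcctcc
Dnajc3: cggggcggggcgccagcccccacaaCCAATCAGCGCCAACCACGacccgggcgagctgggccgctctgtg
They lie at chr2:34771980-34772059 (plus strand), chr10:86705525-86705674 (minus strand), chr15:88819496-88819565 (plus strand) and chr14:118937802-118937871 (plus strand). Hsp90b1 holds 2 copies, 212 and 107 bases before the start, in opposite orientations. Among the other members with these letters, Calr, a lectin chaperone, had a change of 0.43 ± 0.33 (adjusted p = 0.596).

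In the XBP1 branch and ER degradation, 21 genes were tested, 1 rose, 18 were positive and the median was 0.39 (0.17 without ethanol-fed replicate 3). Xbp1, whose RNA is spliced by the sensor IRE1, had 309, 337 and 309 CPM in pair-fed and 531, 599 and 609 CPM in ethanol-fed livers (0.86 ± 0.15, adjusted p = 0.0118). Its 3 ethanol-fed libraries were close together and above all pair-fed ones. The call was lost without pair-fed replicates 1 (adjusted p = 0.054) or 3 (0.0546) and without ethanol-fed replicates 2 (0.0614) or 3 (0.0548). Syvn1, a ubiquitin ligase of ER degradation, had 163, 108 and 102 CPM against 208, 155 and 629 CPM (1.17 ± 0.34, adjusted p = 0.0993). The PERK-ATF4 branch showed no such direction, with 0 of 20 called, 9 positive and a median of -0.05. Ddit3, the stress factor CHOP, had 15.9, 19.3 and 11.7 CPM against 9.75, 21.0 and 24.1 CPM (0.15 ± 0.70, adjusted p = 0.959). Cebpb, a bZIP partner of this branch, had 288, 204 and 247 CPM against 104.7, 92.7 and 118 CPM, apart in every library (-1.22 ± 0.42, adjusted p = 0.173). Sesn2, an ATF4 target, overlapped between diets (-0.97 ± 0.38, adjusted p = 0.235).

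**Figure D3:**
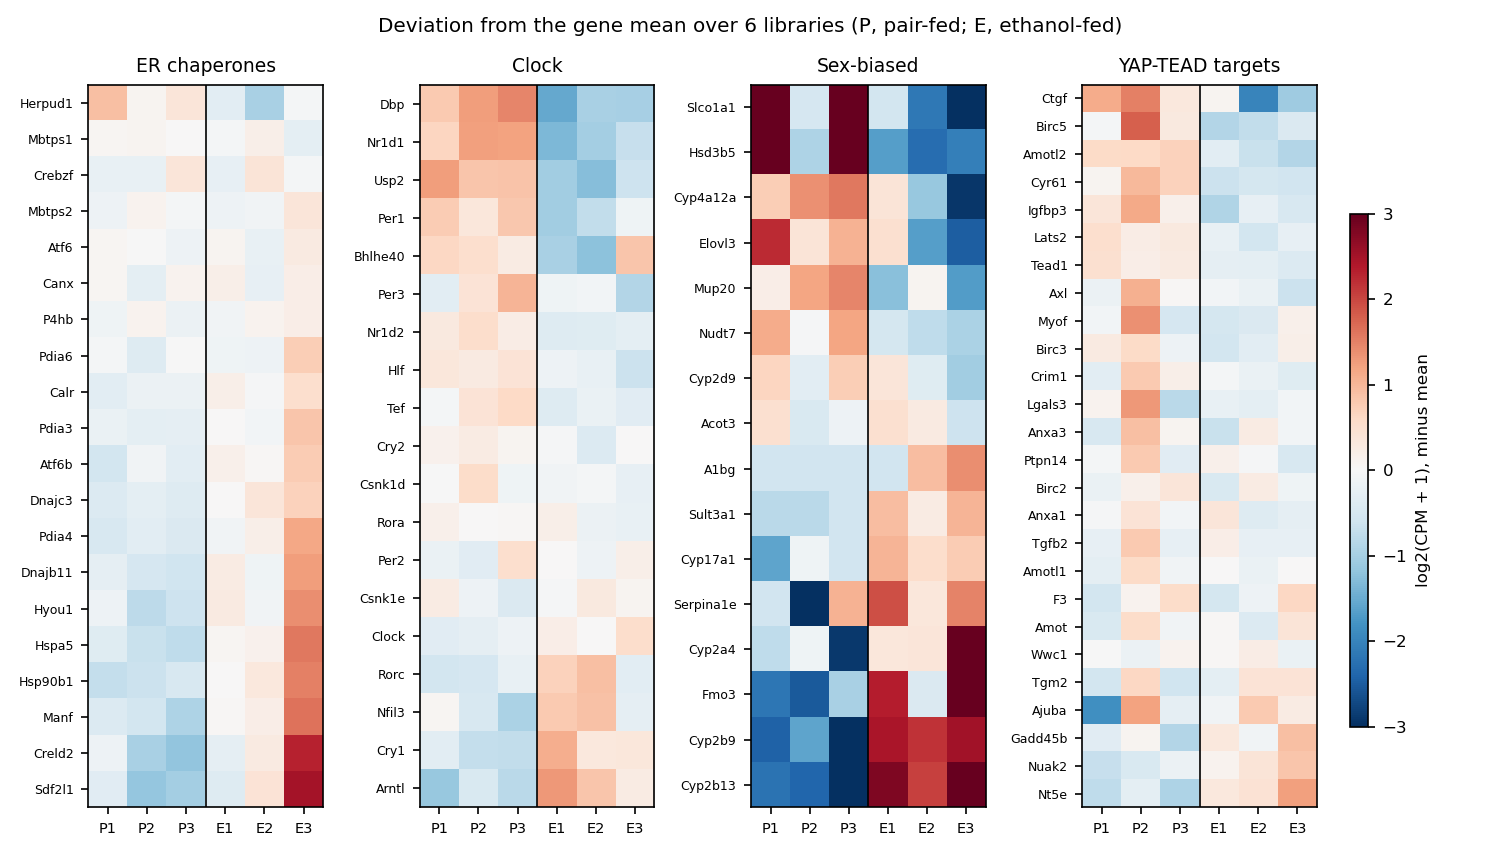
Each cell is the log2(CPM + 1) of a gene in 1 library minus its mean over the 6 libraries (pair-fed P1 to P3, ethanol-fed E1 to E3), with colours capped at 3 in either direction, for ER chaperone, clock, sex-biased and YAP-TEAD target genes with at least 1 CPM in some library. Among ER chaperones E3 is the darkest red column, as in Creld2 (945 CPM against 83.4 to 228 CPM elsewhere).

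YAP-TEAD target genes were mostly negative, though less so without pair-fed replicate 2. Of 26 tested, 1 rose and 3 fell, against 0.401% and 0.751% of all genes. Changes were positive in 7 and negative in 19, against 42.4% positive among all genes. The median change was -0.29 (-0.41 without pair-fed replicate 1 and -0.02 without pair-fed replicate 2). Without pair-fed replicate 2, 12 of the 26 were positive and 0 were called. Cyr61, a matricellular protein and a classic target, had 15.7, 29.9 and 24.8 CPM in pair-fed and 9.21, 9.95 and 9.64 CPM in ethanol-fed livers (-1.16 ± 0.25, adjusted p = 0.0306). Its ethanol-fed levels lay above the 4.28 to 8.33 CPM of the ethanol-fed controls in all 3 libraries. Ctgf, a related matricellular protein, had 37.5, 49.7 and 21.1 CPM against 17.9, 3.50 and 7.41 CPM (-1.97 ± 0.42, adjusted p = 0.0279). Amotl2, an angiomotin that binds YAP, had 92.0, 92.5 and 99.9 CPM against 48.6, 37.8 and 32.7 CPM (-1.25 ± 0.27, adjusted p = 0.0306). Groups were apart in the 3 genes.

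Nuak2, an AMPK-related kinase, ran the other way, from 21.6, 25.9 and 31.7 CPM to 38.5, 46.8 and 64.8 CPM (0.88 ± 0.21, adjusted p = 0.0458). Vgll4, which competes with YAP for TEAD and belongs to the Hippo components, fell from 22.3, 18.955 and 18.2 CPM to 9.03, 9.39 and 9.30 CPM (-1.02 ± 0.19, adjusted p = 0.0126). Of 23 Hippo components 2 fell and 0 rose, with a median of -0.12 (0.00 without pair-fed replicate 2). Without pair-fed replicate 1, Cyr61 kept its call (adjusted p = 0.0239), while Ctgf (0.0962), Amotl2 (0.0853), Nuak2 (0.159) and Vgll4 (0.0729) did not. Amotl2 was also lost with TMM factors (0.0613) and with edgeR (0.0636), and Ctgf with edgeR (0.0515). With each of the other 5 libraries left out, Cyr61 had an adjusted p of 0.0652 to 0.124. Ankrd1, another target, had at most 0.367 CPM and was not tested.

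GGAATG, a TEAD motif, stood on either strand within 250 bases before the start of 7 of 21 tested YAP-TEAD targets with a promoter in the table (33.3%), against 14.36% of 27025 genes. Other lists ran from 0% (such as the proteasome) to 45% (Hippo components), with 30% for heme and iron genes. The share is therefore not particular to YAP-TEAD targets. The motif is shown in capitals (CATTCC, reverse strand) for the called genes Cyr61 (RefSeq symbol Ccn1) and Amotl2, 103 and 65 bases before their starts.
Cyr61: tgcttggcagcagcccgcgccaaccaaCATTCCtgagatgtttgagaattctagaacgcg
Amotl2: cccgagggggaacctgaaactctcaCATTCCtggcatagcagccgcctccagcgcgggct
The stretches lie at chr3:145650056-145650115 (minus strand) and chr9:102717714-102717773 (plus strand) of GRCm38.p6.

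Genes of fatty acid synthesis were mostly negative. Of 24 tested 3 fell and 0 rose, 20 were negative, the median was -0.71, and in 12 the ethanol-fed libraries all lay below the pair-fed ones, against 14.6% of all genes. Fads2, the delta-6 desaturase of polyunsaturated fatty acids, had 1739, 2364 and 1652 CPM in pair-fed and 816, 781 and 539 CPM in ethanol-fed livers (-1.43 ± 0.27, adjusted p = 0.0135). Fads1, the delta-5 desaturase, had 1185, 1374 and 1125 CPM against 673, 529.8 and 475 CPM (-1.14 ± 0.21, adjusted p = 0.0135). Lpin1, a phosphatidate phosphatase and coactivator, had 1965, 1624 and 1399 CPM against 222, 151 and 747 CPM (-2.49 ± 0.54, adjusted p = 0.0306). None of the 3 overlapped between diets. Srebf1, the master regulator SREBP1, missed the threshold, with 221, 241 and 329.8 CPM against 94.97, 122 and 69.6 CPM (-1.47 ± 0.37, adjusted p = 0.0561). Without pair-fed replicate 1 the adjusted p was 0.0471 for Fads2, 0.054 for Fads1 and 0.11 for Lpin1, and edgeR gave 0.0947 for Lpin1. Fads2 lost its call without pair-fed replicate 2 (0.0537) and without ethanol-fed replicates 2 (0.0614) or 3 (0.0818).

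Lipid droplet and fatty acid uptake genes had 1 fall among 20, with 15 negative and a median of -0.28. Plin5, a droplet coat protein of oxidative tissue, had 120.4, 169 and 106 CPM in pair-fed and 67.2, 59.9 and 56.1 CPM in ethanol-fed livers (-1.07 ± 0.23, adjusted p = 0.0305, 0.0802 without pair-fed replicate 1, 0.0506 with TMM factors and 0.0542 with edgeR). Cidec, which fuses droplets, had 30.9, 194 and 17.97 CPM against 12.6, 11.2 and 10.3 CPM (-1.99 ± 0.58, adjusted p = 0.0973). Pair-fed replicate 2 was its highest library by far. Cholesterol synthesis and uptake genes had 0 calls among 24, with 20 negative and a median of -0.21. Among apolipoprotein and VLDL assembly genes, 0 of 22 were called. Tm6sf2, which helps load lipid onto VLDL, had 28.8, 39.1 and 35.02 CPM against 66.4, 69.4 and 70.8 CPM (1.00 ± 0.27, adjusted p = 0.0728, and 0.0493 by edgeR). Pltp, which transfers phospholipid in plasma, had 115, 174 and 119 CPM against 81.97, 33.7 and 40.6 CPM (-1.45 ± 0.40, adjusted p = 0.0792). Both were apart in every library.

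Fatty acid oxidation genes were mostly negative as well, 23 of 27, with 1 fall and a median of -0.40. In 14 of the 27 the ethanol-fed libraries all lay below the pair-fed ones, against 14.6% of all genes. Acaa1b, a peroxisomal thiolase, had 4561, 4535 and 3626 CPM in pair-fed and 2321, 1069.7 and 1183 CPM in ethanol-fed livers (-1.56 ± 0.31, adjusted p = 0.0182, and 0.0802 without pair-fed replicate 1). Ppara, the receptor that drives this programme, had 787, 851 and 836 CPM against 566, 373 and 365 CPM (-0.95 ± 0.24, adjusted p = 0.0574). Cpt1a, the gate of mitochondrial oxidation, had a change of -0.96 (adjusted p = 0.0755). The groups did not overlap in these 3 genes. Cyp4a14, an omega-hydroxylase that PPARA induces, ran the other way, at 701, 405 and 377 CPM against 959, 1085 and 881 CPM (1.03 ± 0.29, adjusted p = 0.0817).

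Genes of gluconeogenesis and glycolysis had 0 calls among 21, with 6 positive and a median of -0.36. In 7 of the 21 the ethanol-fed libraries all lay below the pair-fed ones, against 14.6% of all genes. Foxo1, the insulin-regulated activator of gluconeogenesis, had 67.6, 46.95 and 55.6 CPM in pair-fed and 30.7, 16.6 and 27.04 CPM in ethanol-fed livers (-1.19 ± 0.32, adjusted p = 0.0693). Sds, which turns serine into pyruvate, had 429, 406 and 411 CPM against 199.5, 121 and 179 CPM (-1.34 ± 0.36, adjusted p = 0.0713). The diets were apart in both genes.

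Enzymes of alcohol and aldehyde oxidation had 2 falls and 0 rises among 13 tested (median -0.32). Adh4, an alcohol dehydrogenase that also acts on retinol, had 310.5, 253 and 303 CPM in pair-fed and 141, 151 and 109.5 CPM in ethanol-fed livers (-1.11 ± 0.26, adjusted p = 0.0396). Aldh3a2, a fatty aldehyde dehydrogenase, had 797, 904 and 702 CPM against 469, 421 and 221 CPM (-1.17 ± 0.26, adjusted p = 0.0353). Both were apart in every library, and both missed the threshold without pair-fed replicate 1 (0.127 and 0.109), with TMM factors (0.0824 and 0.0662) and with edgeR (0.0797 and 0.0826). Cyp2e1, which ethanol is known to stabilise as protein, had 14844, 5979 and 8823 CPM against 6807, 4965 and 7614 CPM, with overlapping groups (-0.54 ± 0.39, adjusted p = 0.57).

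Bile acid genes had 1 rise and 1 fall among 23. Cyp2c70, which makes muricholic acids in mice, rose from 403, 355 and 423 CPM to 765, 840.3 and 1335 CPM (1.27 ± 0.28, adjusted p = 0.0346). Cyp27a1, the first enzyme of the alternative pathway, fell from 133, 127 and 149 CPM to 87.6, 82.0 and 65.6 CPM (-0.80 ± 0.18, adjusted p = 0.0396). Of 26 amino acid and urea genes Sdsl, a serine dehydratase-like enzyme, rose from 18.6, 19.999 and 13.4 CPM to 39.2, 35.9 and 56.8 CPM (1.29 ± 0.25, adjusted p = 0.0182). Groups were apart in each of them. In phospholipid metabolism, Mat1a, which makes S-adenosylmethionine in liver, rose (0.93 ± 0.22, adjusted p = 0.0451) and Pcyt2, of phosphatidylethanolamine synthesis, fell (-0.96 ± 0.22, adjusted p = 0.0395). The asialoglycoprotein receptor gene Asgr2 (-0.76 ± 0.18, adjusted p = 0.0428) and the complement gene C8g (-0.70 ± 0.15, adjusted p = 0.0248) also fell. All 7 of these calls were lost without pair-fed replicate 1, with adjusted p-values of 0.0594 to 0.148. The 4 falls (Cyp27a1, Pcyt2, Asgr2 and C8g) were also lost with TMM factors (0.0549 to 0.109) and with edgeR (0.071 to 0.121).

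Genes of circadian output were among the falls. Of 20 tested clock genes 3 fell and 0 rose, and the median was -0.29. The ethanol-fed libraries lay all above the pair-fed ones in 4 and all below in 8, against 7.83% and 14.6% of all genes. Usp2, a clock-controlled deubiquitinase, had 183, 135 and 138 CPM in pair-fed and 36.7, 30.8 and 49.4 CPM in ethanol-fed livers (-1.95 ± 0.22, adjusted p = 0.000278). Dbp, a PAR bZIP transcription factor of clock output, had 189, 258 and 299 CPM against 36.7, 54.7 and 54.1 CPM (-2.33 ± 0.45, adjusted p = 0.0173). Nr1d1, the repressor REV-ERB alpha, had 55.5, 84.9 and 82.3 CPM against 13.2, 16.9 and 21.4 CPM (-2.05 ± 0.37, adjusted p = 0.0119). The 3 genes were apart in every library and kept their calls without pair-fed replicate 1. Dbp lost its call without ethanol-fed replicates 2 or 3 or pair-fed replicate 3 (0.0556 to 0.0867), and Nr1d1 without ethanol-fed replicate 2 or pair-fed replicate 3 (0.0614 and 0.0611).

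Among other clock genes, Arntl and Cry1 were higher and Per1 lower, without passing the threshold. Arntl, the activator BMAL1 that REV-ERB alpha represses, had 0.379, 1.22 and 0.733 CPM in pair-fed and 6.50, 4.42 and 2.58 CPM in ethanol-fed livers (1.59 ± 0.41, adjusted p = 0.0578). Cry1, a repressor of the clock, had 13.8, 10.3 and 10.1 CPM against 38.1, 21.9 and 22.2 CPM (1.16 ± 0.29, adjusted p = 0.0536). The groups did not overlap in either gene. Per1 had 86.1, 64.5 and 88.4 CPM against 23.8, 29.8 and 46.3 CPM (-1.27 ± 0.33, adjusted p = 0.0574). With edgeR, Arntl and Cry1 had adjusted p-values of 0.0415 and 0.0343. The hour of death is not given in the labels, so that the clock time of each library was not tested.

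Sex-biased liver genes went both ways, although all 6 libraries held Y-linked reads. Of 17 tested 2 rose (the female-biased Cyp2b9 and Cyp2b13), 1 fell, and the median was 0.09. Fitted over the 6 libraries alone, without the spread of the other groups, 5 rose and 2 fell. Hsd3b5, a male-biased steroid dehydrogenase, had 64.6, 1.56 and 41.6 CPM in pair-fed and 0.542, 0 and 0.172 CPM in ethanol-fed livers (-3.98 ± 0.75, adjusted p = 0.0135). Pair-fed replicate 2 stood far below its group in it. The male-biased transporter gene Slco1a1 had the same outlying library, with 214, 11.8 and 191 CPM against 11.4, 3.13 and 0.344 CPM (-4.30 ± 1.22, adjusted p = 0.0857). Cyp4a12b, a male-biased P450 close in sequence to Cyp4a12a, had 19.7, 18.6 and 26.035 CPM against 1.44, 2.21 and 0.172 CPM (-3.41 ± 0.68, adjusted p = 0.0183).

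Growth hormone and IGF genes, which include regulators of this dimorphism, had 1 rise (Cux2) and 1 fall (Bcl6) among 13 tested, with a median of -0.14. Cux2, a female-biased transcription factor, had 0, 0 and 0.183 CPM in pair-fed and 1.81, 5.89 and 10.3 CPM in ethanol-fed livers (2.51 ± 0.50, adjusted p = 0.0182). Bcl6, a male-biased repressor that growth hormone lowers, fell from 68.5, 42.4 and 93.5 CPM to 14.99, 9.76 and 18.6 CPM (-2.13 ± 0.34, adjusted p = 0.00513). Neither gene overlapped between diets. Bcl6 kept its call without pair-fed replicate 1 (adjusted p = 0.027), while Cux2 (0.077), Hsd3b5 (0.0802) and Cyp4a12b (0.0722, and 0.0797 with edgeR) did not. Bcl6 lost it without ethanol-fed replicate 2 (0.0508).

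Several of the largest falls lay outside these groups. Lipg, the phospholipase endothelial lipase, had the smallest adjusted p, with 183, 127 and 109.6 CPM in pair-fed and 12.1, 17.7 and 30.8 CPM in ethanol-fed livers (-2.79 ± 0.31, adjusted p = 0.000251). Upp2, a uridine phosphorylase, had 516, 337 and 771 CPM against 49.3, 56.7 and 31.3 CPM (-3.50 ± 0.56, adjusted p = 0.00513). Pfkfb3, a regulator of glycolysis, had 102, 33.4 and 46.2 CPM against 6.50, 6.26 and 16.9 CPM (-2.48 ± 0.43, adjusted p = 0.0088, and 0.054 without pair-fed replicate 1). All 3 were apart in every library.

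Zbtb16, a zinc finger factor known as a glucocorticoid target, had 58.7, 53.4 and 65.5 CPM in pair-fed and 9.21, 5.34 and 36.5 CPM in ethanol-fed livers (-2.16 ± 0.50, adjusted p = 0.0428). Clec2h, a C-type lectin gene, had 17.985, 8.87 and 23.1 CPM against 1.26, 3.68 and 1.38 CPM (-2.49 ± 0.56, adjusted p = 0.0353). The diets did not overlap in either gene, and without pair-fed replicate 1 the adjusted p of both was 0.119. With edgeR it was 0.129 for Zbtb16 (0.0537 with TMM factors) and 0.0797 for Clec2h.

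Foxo3, Kcnk5 and Ppargc1b, picked after their values were seen because their calls were kept whichever library was left out, are a nutrient-sensing transcription factor, a potassium channel and a coactivator of mitochondrial genes. Foxo3 had 75.7, 97.6 and 101 CPM in pair-fed and 29.6, 20.6 and 31.2 CPM in ethanol-fed livers (-1.73 ± 0.25, adjusted p = 0.00232). Kcnk5 had 244, 133 and 179 CPM against 40.3, 28.2 and 57.5 CPM (-2.13 ± 0.30, adjusted p = 0.00191). Ppargc1b had 15.3, 14.3 and 17.2 CPM against 3.79, 4.97 and 2.76 CPM (-1.80 ± 0.26, adjusted p = 0.00288). Their diets were apart by a wide gap.

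Cell cycle genes were negative in 24 of 26 with a median of -0.60 and 0 calls, and 1 library stood out. Without pair-fed replicate 2 the median was -0.23, and without pair-fed replicate 1 it was -0.95. Mcm6, a subunit of the replicative helicase, had 4.17, 48.0 and 9.35 CPM in pair-fed and 7.40, 8.29 and 8.78 CPM in ethanol-fed livers. The mitotic cyclin gene Ccnb2 had 1.32, 6.96 and 0.917 CPM against 0.542, 0 and 0 CPM (-1.51 ± 0.42, adjusted p = 0.0834). Pair-fed replicate 2 was the highest library in both. Tk1, a thymidine kinase of S phase, differed from them in that replicate 2 was the lowest pair-fed library, with 25.6, 17.9 and 34.7 CPM against 16.8, 8.29 and 5.86 CPM (-1.33 ± 0.33, adjusted p = 0.0561).

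Markers of other liver cells and inflammatory genes also held pair-fed replicate 2 apart. Vcam1, an adhesion molecule for leukocytes, had 16.3, 39.8 and 13.4 CPM in pair-fed and 4.15, 7.18 and 4.65 CPM in ethanol-fed livers (-1.80 ± 0.49, adjusted p = 0.073). Col3a1, a fibrillar collagen, had 10.4, 38.1 and 10.8 CPM against 3.79, 6.26 and 6.2 CPM (-1.46 ± 0.50, adjusted p = 0.164). Itgax, an integrin of dendritic cells and macrophages, had 1.14, 15.3 and 1.83 CPM against 1.03 to 1.62 CPM (adjusted p = 0.371). That library was the highest of the 6 in all 3 genes.

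Sinusoidal endothelial genes had 0 calls among 16, with a median of -0.14. Dnase1l3, a nuclease of these cells, had 107.5, 90.8 and 87.3 CPM in pair-fed and 67.3, 49.2 and 74.2 CPM in ethanol-fed livers (-0.59 ± 0.17, adjusted p = 0.0946). Marco, a scavenger receptor of Kupffer cells, had 2.08, 2.26 and 1.65 CPM against 6.86, 12.5 and 5.34 CPM (1.55 ± 0.47, adjusted p = 0.113). Both were apart in every library. Fas, the death receptor and a p53 target, had 18.6, 21.6 and 19.98 CPM against 31.2, 29.5 and 34.8 CPM (0.64 ± 0.19, adjusted p = 0.0952). The other lists with 0 calls included p53 targets (25 tested, median -0.14), interferon-stimulated genes (28, -0.17), oxidative phosphorylation (31, -0.13), proteasome (28, -0.06), NRF2 targets (17, 0.04), stellate cell markers (15, -0.11) and cholangiocyte markers (10, -0.06).

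**Figure D4:**
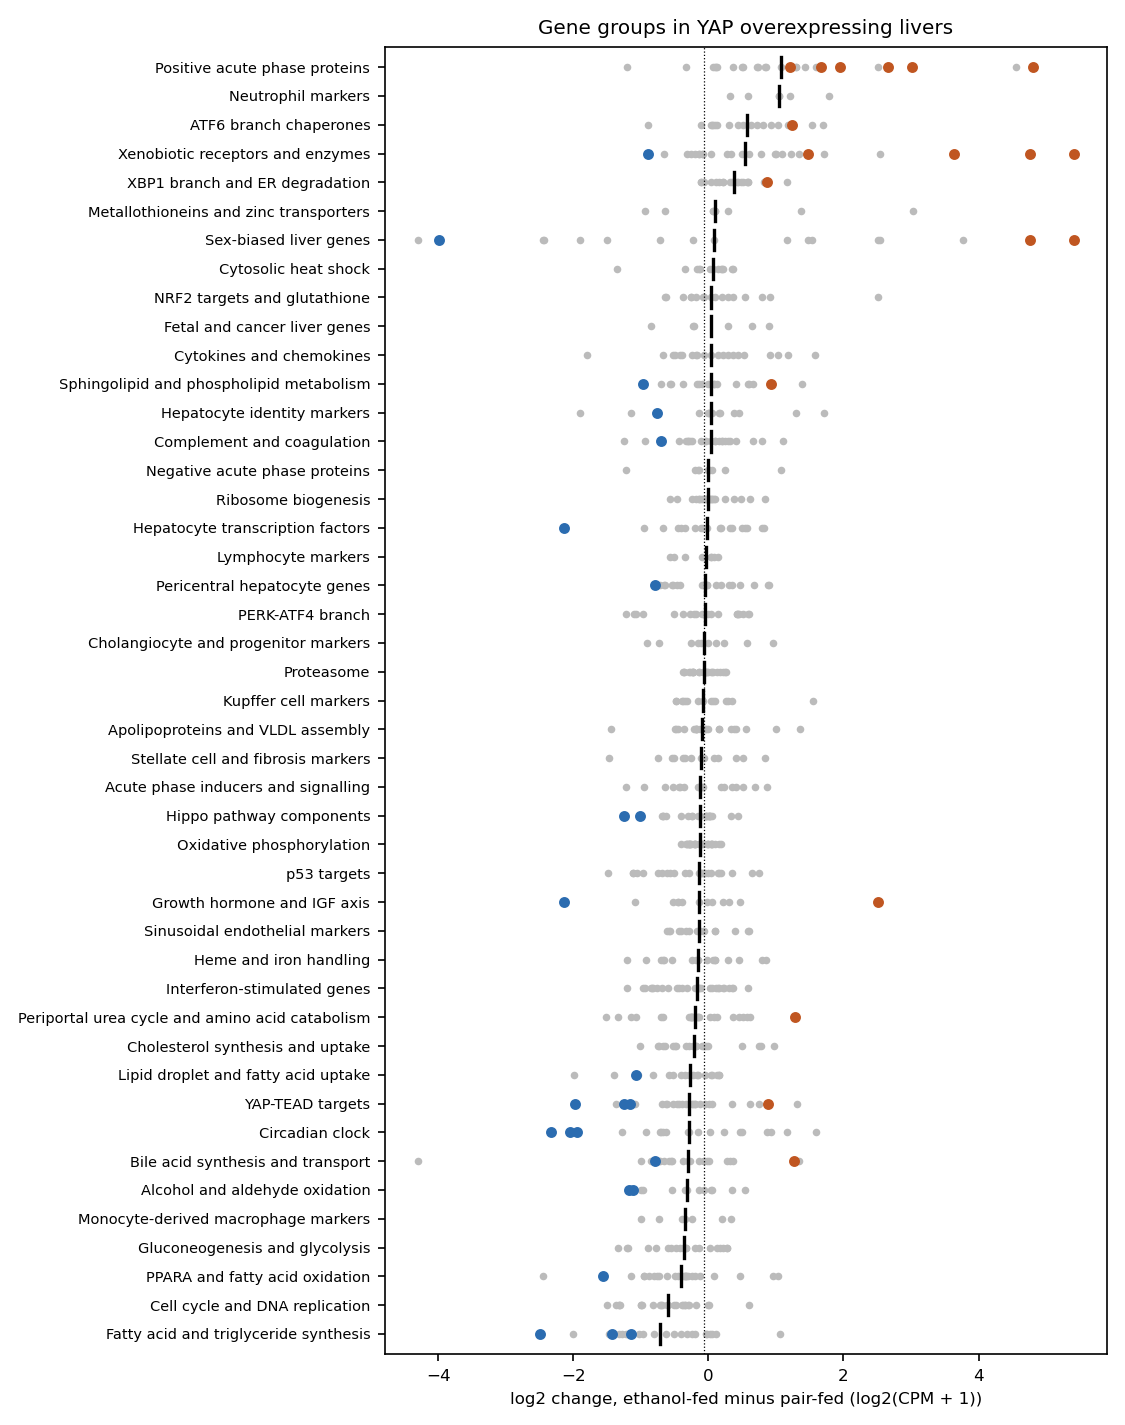
Log2 change of each tested member (points) of the 45 gene groups, ordered by median (black bar), with called members in orange (higher) and blue (lower) and the median of all genes, -0.07, as a dotted line. Positive acute phase proteins (1.08) and ER chaperones (0.57) lie toward one end, and fatty acid synthesis (-0.71) and cell cycle genes (-0.60) toward the other. The neutrophil row holds 6 of 15 markers, some of which passed the filter only through the ethanol-fed libraries.

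Whether YAP overexpression changed the response to ethanol was tested as the difference between the response above and that of control livers, which share no library. Limma called 0 genes (0% of 11720), and edgeR called 0. Unadjusted, 847 genes had a p under 0.05 in limma and 929 in edgeR. The smallest adjusted p in limma was 0.0907, and DESeq2 called 59 genes. Without pair-fed control replicates 2 and 3, whose Xist reads no overexpression library had, limma called 1 gene. Without pair-fed control replicate 1 it called 27, but there the 2 remaining pair-fed controls held Xist reads and the ethanol-fed controls did not. Sex and diet cannot be told apart among the controls of that fit. It called 2 without pair-fed overexpression replicate 2 and 1 without pair-fed overexpression replicate 3. Of the 135 called genes 121 had the same sign in control livers (89.6%, against 63.8% of all genes), and 39 were also called there. These were 28.9% of the overexpression calls and 12.3% of the 316 control calls. Across the 11720 genes the changes correlated at r = 0.387, as a description, since genes are not independent.

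Cyp2b10 (3.59 in control livers), Lcn2 (4.57), Usp2 (-1.86), Xbp1 (0.93) and Slc34a2 (3.99) had changes in control livers close to those given above. ER chaperones were 18 of 20 positive here and 3 of 20 in controls (median -0.21), and the changes of Hsp90b1 and Hspa5 in controls were 0.24 and 0.00. Their differences were 0.99 ± 0.37 (adjusted p = 0.534) and 1.19 ± 0.44 (adjusted p = 0.538). Without ethanol-fed overexpression replicate 3 the median of the ER chaperones here was 0.35, with 0 called. PERK-ATF4 genes went the other way, with 9 of 20 positive here and 16 of 20 in controls (median 0.56). Positive acute phase genes had a median of 0.69 in controls, with 22 of 27 positive. Cyp2b9 and Cyp2b13 changed by 1.18 and -0.66 in controls, where the 2 pair-fed libraries with Xist reads held 404 and 420.2 CPM of Cyp2b9 and the third 21.7 CPM. All changes in controls given here rest on these same pair-fed libraries. The part of sex in them, also for ER chaperone and PERK-ATF4 genes, was not tested.

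The 6 called genes with the smallest p for the difference were looked at after their values were seen, and none passed the threshold. Hacl1, an enzyme of fatty acid alpha-oxidation, had 208, 158 and 206 CPM in pair-fed and 470.4, 498 and 365 CPM in ethanol-fed overexpressing livers, against 560.1, 532 and 433 CPM and 341, 564 and 406 CPM in controls (difference 1.46, adjusted p = 0.0907). Nr1d1 had 12.6, 11.1 and 14.9 CPM in pair-fed and 25.5, 9.46 and 17.4 CPM in ethanol-fed controls (difference -2.37, adjusted p = 0.195). Mbd1, a methyl-CpG binding protein, had 65.9, 46.8 and 45.3 CPM and then 19.7, 16.8 and 15.8 CPM in overexpressing livers, against 24.2, 36.1 and 29.3 CPM in pair-fed controls (difference -1.18, adjusted p = 0.195). In these 3 genes the pair-fed overexpressing livers stood apart from the other 3 groups.

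Txnip, an inhibitor of thioredoxin that glucose induces, had 201, 209 and 144 CPM in pair-fed and 65.5, 45.9 and 77.5 CPM in ethanol-fed overexpressing livers, against 48.1, 101 and 149 CPM and 133, 109.7 and 211 CPM in controls. Its changes had opposite signs (difference -2.24, adjusted p = 0.195). Avpr1a, a vasopressin receptor, had 14.6, 6.09 and 12.8 CPM and then 61.6, 58.2 and 53.05 CPM, against 19.3, 51.5 and 53.4 CPM in pair-fed controls (difference 2.16, adjusted p = 0.195). Of these controls, the last 2 values are from the libraries with Xist reads, and without them the difference was 1.23 (adjusted p = 0.709). AW011738, a gene of unnamed function, differed by 1.85 (adjusted p = 0.195). Among genes that were not called, Cidec also had opposite signs, at -1.99 here and 2.48 in controls (difference -4.46 ± 0.82, adjusted p = 0.0907). Lpin1 had a change of 0.59 in controls (difference -3.07 ± 0.77, adjusted p = 0.204).

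**Figure D5:**
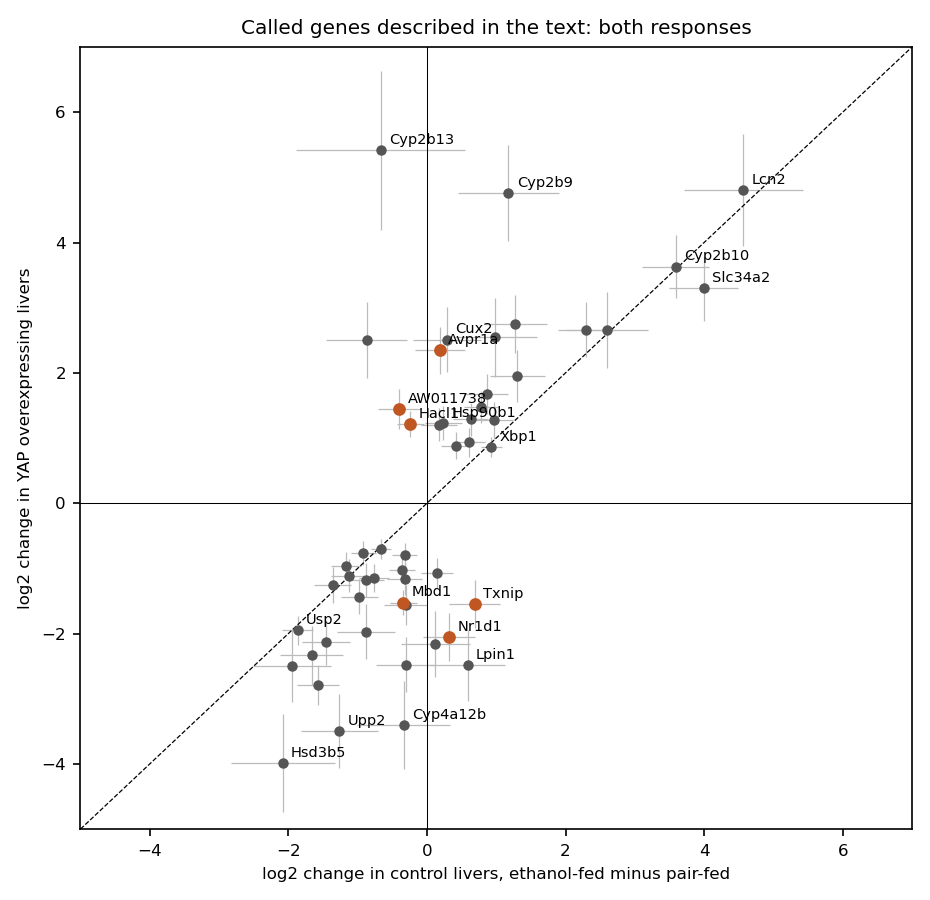
Log2 change with ethanol in YAP overexpressing livers (vertical axis) against that in control livers (horizontal axis) for called genes described in the text, with SE bars and a dashed line of equal change. Foxo3, Kcnk5, Ppargc1b, Nr1i2 and Orm2 are described in the text but not shown. The 6 genes in orange are those with the smallest p for the difference among genes called in the ethanol response, and Cyp2b10 (3.63 and 3.59) lies on the line.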

How the data were processed

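The deposited table holds CPM of 23930 genes in 18 liver libraries, made by the authors from an Ion AmpliSeq panel and scaled to each library's total. The deposited per-library files hold log2(RPM + 1) values made with ampliSeqRNA 5.10.1.2, per the file headers, and equal the log2 of the CPM table. No source used here names the aligner or genome build, and printed coordinates are those of the RefSeq promoter table. Whole reads came back from 100% of CPM values (tolerance 0.02 reads) and were used in the count tests.

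Genes with at least 1 CPM in 3 of the 18 libraries were kept. One mean per group was fitted to log2(CPM + 1) over 18 libraries with limma 3.58.1 (eBayes with trend) in R 4.3.3, with two-sided tests and Benjamini-Hochberg adjustment, after a test on simulated data. Alternatives were filters, pseudocounts, quantile normalization, TMM factors, a replicate block, array weights, smaller fits, each library left out, and edgeR 4.0.16 and DESeq2 1.42.0 on recovered reads.

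Genes named are the 10 largest rises and falls among called genes of at least 5 CPM on average whose groups do not overlap, up to 4 called members of each of 45 lists (or the 2 of smallest p), and Yap1, Cyr61, Ctgf, Ankrd1, Atf6, Hspa5, Ddit3, Cyp2b10, Lcn2, Mt1, Cyp2e1 and Alb. Not every gene named by this rule is reported here. Other members with values were picked after their values were seen. Groups and lists were chosen with earlier results of these data known.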

Additional observations from a re-analysis of the deposited data

How the results depend on the processing

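The number of calls depended on the fit. Each called gene tested under an alternative kept its sign there (all 135, or 122 with a filter of 10 CPM in 3 libraries). With a library left out, the sign was fixed in advance for the 134 genes whose groups did not overlap. The share of higher genes among the calls was 34.8% in the main fit, 60.5% with TMM factors and 65.4% with edgeR. Calls numbered 267 (95 higher, 172 lower) in the 6 libraries alone, 57 (21 and 36) without a filter, 505 (192 and 313) with array weights, 363 (199 and 164) with DESeq2 and 136 (89 and 47) with edgeR. TMM factors gave 78 higher and 51 lower, and quantile normalization 46 lower. Leaving out 1 library gave 17 to 149 calls, with 6 to 59 higher and 11 to 90 lower. The cause of this range was not tested. Correlations of deviations were 0.099, 0.157 and -0.075 between libraries of the same replicate number (1 to 3). Between libraries of different numbers they ran from -0.168 to 0.092. These are too few values to tell whether replicate numbers pair the libraries. The replicate block over 18 libraries gave 138 calls, and over the 6 libraries alone 296 (106 and 190).

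The difference from control, with 0 calls, had 1 without a filter, 9 with array weights and 59 with DESeq2. It had 2 in the 12 libraries of control and overexpression, and 0 to 27 with 1 library left out. The 27 came without pair-fed control replicate 1, where the 2 remaining pair-fed controls held Xist reads.

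Named calls kept their side of the threshold in 728 values and lost it in 275. Genes near 0 that changed sign were Yap1 (0.046 with TMM factors, 0.013 with quantile normalization, -0.59 to 0.35 with 1 library left out), Atf6 (-0.042 to 0.20), Ddit3 (-0.088 to 0.52) and Alb (0.00 with quantile normalization, -0.027 with array weights, -0.053 to 0.042). A filter of 10 CPM left no tested gene on the neutrophil, lymphocyte and fetal liver lists. Depth limits genes below 0.517 to 0.568 CPM.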
